A study of Homo sapiens with 12 samples.

Results

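The early stability difference asks how silencing of CPSF6 changes what happens to each RNA in the first 3 h after transcription has been stopped. HepG2, a line from a human liver tumour, often stands in for hepatocytes. Its cells received siRNA that targets CPSF6 (siCPSF6) or a negative control (siNC), grew for 48 h, and were then given actinomycin D, which stops transcription, at 5 µg/ml. The groups compared were siCPSF6 at 3 h, siCPSF6 at 0 h, siNC at 3 h and siNC at 0 h, with 2 biological replicates each, so that 8 of the 12 libraries of the series enter the comparison and the 4 libraries of the 6 h groups do not. All groups were transfected, and the 0 h groups had no time in the drug. The labels give 1 siCPSF6 arm, so that effects of single siRNAs cannot be told apart. For each gene the early difference is the log2 change between 3 h and 0 h in siCPSF6 cells minus the same change in siNC cells. A positive value means that the normalized count, relative to its own 0 h level, was higher in siCPSF6 cells than in siNC cells. It refers to a share of the library and not to an amount of RNA. Unless an arm is named, a gene that rose or fell is one with an early difference above or below 0 at an adjusted p under 0.05. Such a gene can gain or lose share in both arms. Genes with a mean of at least 20 normalized counts over all 12 libraries were used, 12939 of the 22148 in the tables. The lowest mean inside this limit was 20 and the highest outside it was 19.9.

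CPSF6 is the large subunit of cleavage factor Im, a complex whose small subunit, NUDT21, binds UGUA motifs in nascent RNA and which helps to decide where an mRNA ends. Loss of the complex is known to favour cleavage at sites closer to the stop codon, which shortens 3′ UTRs. The 3′ UTR holds many of the elements that set the life of an mRNA, among them AU-rich elements, bound by proteins such as ZFP36, and the Pumilio motif. After actinomycin D, short-lived mRNAs such as those of immediate early genes are lost within hours, while mRNAs of secreted plasma proteins and of ribosomal proteins are long-lived.

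The deposited normalized counts of the 8 libraries summed to between 19133288 and 28252230, lower at 0 h than at 3 h in both arms. The authors scaled each library to an equal upper quartile, so that these values are shares of what is left and not amounts per cell. ERCC spike-in RNA took 1.13% to 1.43% of a library. It was added to a fixed mass of total RNA, so values rescaled by it refer to a mass of RNA and not to a cell. The log2 spike-in level of siCPSF6 3 h replicate 1 was 0.29 and that of replicate 2 was -0.08, while the libraries of each other pair differed by less. Fewer cells that hold an RNA and less RNA per cell cannot be told apart in bulk RNA.

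The silenced gene was low in siCPSF6 libraries at both times. CPSF6 had 674 and 801 normalized counts at 3 h and 768 and 718 at 0 h in siCPSF6 cells, against 3389 and 3309 at 3 h and 2147 and 2082 at 0 h in siNC cells. The siRNA groups did not overlap at either time. Its early difference was -0.68 (SE 0.12, adjusted p = 0.0054), with a share of CPSF6 mRNA that was higher at 3 h in siNC cells and close to its 0 h value in siCPSF6 cells; on the spike-in scale 65.5% of the 0 h level remained in siCPSF6 cells and 96.8% in siNC cells. With spike-in scaling the early difference was -0.56 and did not pass (adjusted p = 0.30). With TPM it was -1.21 (adjusted p = 0.031). NQO1, a target of NRF2, had an early difference of -0.07 (adjusted p = 0.72), and ALB, the albumin gene, -0.09 (adjusted p = 0.71). MYC, a short-lived transcription factor mRNA, had 0.49 (SE 0.32, adjusted p = 0.47). The hepatocyte markers ALB, AFP, APOA1, APOB, TF, TTR, SERPINA1 and FGB had between 429 (TTR) and 475972 (APOB) normalized counts in every library. Of 10 measured genes that mark stroma, endothelium or immune cells, 7 were tested, and none passed with limma or had an unadjusted p under 0.05 (median early difference -0.07). Their summed normalized counts were 10700 to 15895 in siCPSF6 cells at 3 h and 6630 to 9905 at 0 h, against 15742 to 22333 in siNC cells at 3 h and 9128 to 12699 at 0 h, most of it LYZ, while COL3A1, VWF and CDH5 had at most 4 in any library. Their part in the results was not tested.

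Most RNAs changed their share of the library within 3 h in both arms. At an adjusted p under 0.05 with limma, 8863 genes (68.5%) changed between 3 h and 0 h in siCPSF6 cells and 9456 genes (73.1%) in siNC cells. As deposited 5752 of these were higher and 3111 lower at 3 h in siCPSF6 cells, and 6012 higher and 3444 lower in siNC cells. With spike-in scaling 235 genes were higher and 5542 lower in siCPSF6 cells, and 456 higher and 6482 lower in siNC cells. The early difference, which compares these changes, passed for 672 genes (5.19%), 463 higher (3.58%) and 209 lower (1.62%). Higher genes were thus 68.9% of the calls. With spike-in scaling 228 genes passed, 210 higher and 18 lower, a share of 92.1%. The median early difference of all genes was -0.03 as deposited and 0.08 with spike-in scaling, and values below are best read against it. The sign of the early difference was the same on both scales for 10454 of the 12939 genes, among them all 463 higher and 209 lower genes. With TPM values, 37 genes passed (0.286%), 32 higher and 5 lower, of which 36 also passed with normalized counts, and 1707 were under an unadjusted p of 0.05, against 2557 with normalized counts. All 463 higher genes and 204 of the 209 lower genes had the same sign with TPM, which were made from the same libraries.

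The number of genes that passed depended on single libraries. It was 236 without siCPSF6 0 h replicate 1, 296 without siCPSF6 0 h replicate 2, 226 without siNC 0 h replicate 1, 344 without siNC 0 h replicate 2 and 418 without siNC 3 h replicate 1. The higher genes numbered 295 without siCPSF6 3 h replicate 1, and the lower genes 80 and 89 without siNC 3 h replicate 1 and replicate 2. With the replicate number as a term in the fit, 1527 genes passed (11.8%), 899 higher (6.95%) and 628 lower (4.85%), and all 672 genes were among them.

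**Figure D1:**
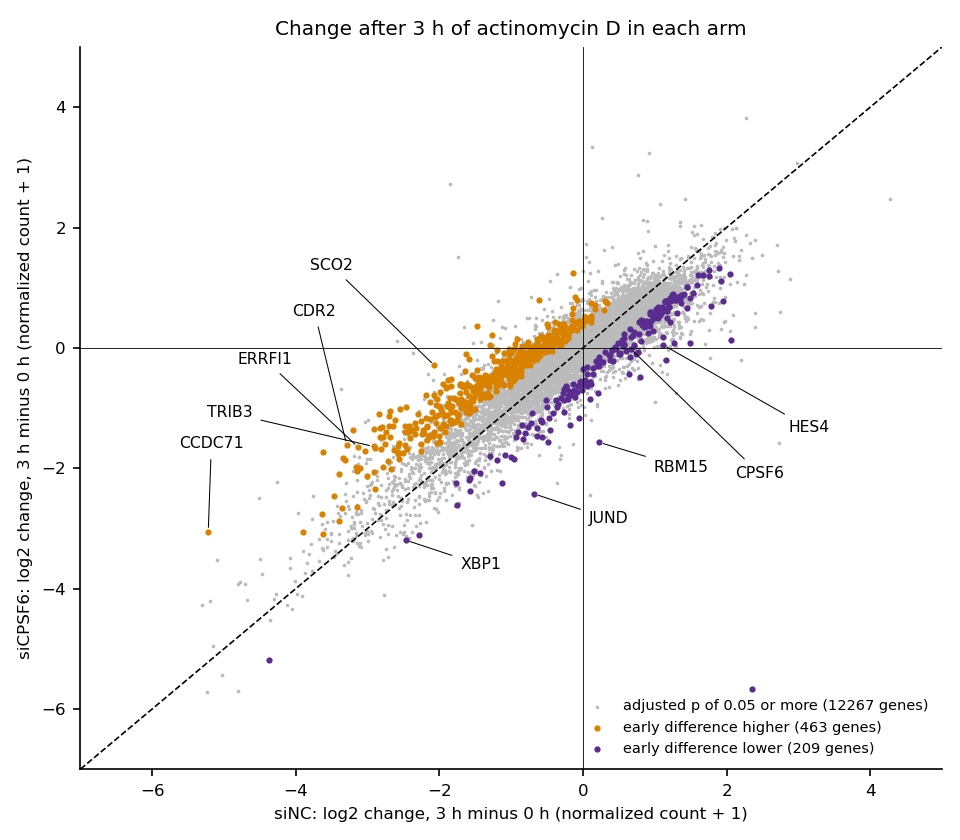
Log2 change between 3 h and 0 h in siCPSF6 cells (vertical axis) and siNC cells (horizontal axis) for 12939 genes, on the normalized count scale; the dashed line marks an equal change. The 463 higher genes (orange) lie above the line, mostly where RNAs fell in siNC cells, and the 209 lower genes (purple) below it; the single purple point at the lower right is FMC1-LUC7L2, a readthrough gene listed at 0 in both siCPSF6 libraries at 3 h, whose counts are uncertain because it shares exons with LUC7L2.

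The higher genes were mostly RNAs that were lost in both arms and lost less in siCPSF6 cells. Of the 463, 345 were below their 0 h level at 3 h in both arms as deposited, 105 in siNC cells alone and 13 in neither arm. Their median change was -0.45 in siCPSF6 cells and -1.14 in siNC cells on the log2 scale of normalized counts. With spike-in scaling 452 were below their 0 h level in both arms, and the medians correspond to 48.4% of the 0 h level in siCPSF6 cells and 27.6% in siNC cells. Over all 12939 genes these medians were 78.7% in siCPSF6 cells and 73.3% in siNC cells.

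The 209 lower genes were mixed. As deposited 63 were below their 0 h level in both arms, 41 in siCPSF6 cells alone and 105 in neither arm. With spike-in scaling 112 were below it in both arms, 38 in siCPSF6 cells alone and 59 in neither arm. Their median change was 0.02 in siCPSF6 cells and 0.64 in siNC cells. On the spike-in scale the medians correspond to 66.9% of the 0 h level in siCPSF6 cells and 95.6% in siNC cells. As the calls were made on these values, the medians are a description.

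The 14 largest rises were CCDC71, SCO2, CDR2, CTTNBP2NL, DCLRE1B, STBD1, RGL1, DBR1, MBP, NSMCE3, ERRFI1, NCK1, MED18 and VANGL1, with early differences of 2.17 for CCDC71 to 1.42 for VANGL1. ERRFI1 (hg38 chr1:8004404-8026308, minus strand) encodes a feedback inhibitor of the EGF receptor. It had 4167 and 3479 normalized counts at 3 h and 12662 and 11250 at 0 h in siCPSF6 cells, against 788 and 674 at 3 h and 6927 and 5930 at 0 h in siNC cells. The mRNA was thus already higher in siCPSF6 cells at 0 h, and the gap was wider at 3 h. The early difference was 1.49 (SE 0.16, adjusted p = 0.0015), and on the spike-in scale 21.1% of the 0 h level remained in siCPSF6 cells and 6.96% in siNC cells.

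SCO2 (hg38 chr22:50523568-50526439, minus strand) encodes a copper chaperone for the assembly of cytochrome c oxidase. SCO2 had 518 and 523 normalized counts at 3 h and 648 and 628 at 0 h in siCPSF6 cells, against 81 and 81 at 3 h and 344 and 342 at 0 h in siNC cells. Replicates were close and the arms did not overlap at either time. The early difference of SCO2 was 1.78 (SE 0.15, adjusted p = 4.2e-05), with 54.0% of the 0 h level left in siCPSF6 cells and 14.6% in siNC cells on the spike-in scale. The exons of SCO2 overlap those of other genes on both strands, so that its counts are uncertain.

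DBR1 encodes the enzyme that opens intron lariats. Its counts were 119 and 118 at 3 h and 402 and 451 at 0 h in siCPSF6 cells, against 31 and 46 at 3 h and 363 and 421 at 0 h in siNC cells, so that the arms overlapped at 0 h and were apart at 3 h. The early difference of DBR1 was 1.5 (SE 0.25, adjusted p = 0.0046). MED18, a subunit of the Mediator complex, was also far more apart at 3 h than at 0 h, with 136 and 137 counts at 3 h and 492 and 512 at 0 h in siCPSF6 cells, against 49 and 39 at 3 h and 468 and 422 at 0 h in siNC cells (early difference 1.45, SE 0.20, adjusted p = 0.0016). NCK1, an SH2 and SH3 adaptor, had an early difference of 1.47, VANGL1, a planar cell polarity protein, 1.42, RGL1, an exchange factor for Ral, 1.51, and DCLRE1B, a telomere nuclease, 1.56.

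CCDC71 had the largest value but few counts. It had 36 and 44 normalized counts at 3 h and 341 and 334 at 0 h in siCPSF6 cells, against 10 and 7 at 3 h and 326 and 373 at 0 h in siNC cells. The early difference of CCDC71 was 2.17 (SE 0.30, adjusted p = 0.0015), and 1.69 and 2.65 in replicate pairs 1 and 2. In the fit of all 12 libraries CCDC71 did not pass (adjusted p = 0.053). CDR2, an onconeural antigen, had 1.68 (SE 0.23), STBD1, a glycogen-binding protein, 1.55 (SE 0.21), NSMCE3, a subunit of the SMC5/6 complex, 1.49 (SE 0.28), and CTTNBP2NL, a protein of the striatin phosphatase complex, 1.64 (SE 0.27). MBP, the myelin basic protein gene, differed in layout, since its share in siCPSF6 cells was not lower at 3 h than at 0 h. It had 273 and 253 counts at 3 h and 250 and 204 at 0 h in siCPSF6 cells, against 92 and 95 at 3 h and 238 and 217 at 0 h in siNC cells (early difference 1.49, SE 0.20). CDR2, STBD1, MBP and NCK1 share exons with another gene on their strand, and CDR2, DCLRE1B, ERRFI1 and MBP with one on the opposite strand, so that their counts are uncertain. On normalized counts each of the 14 early differences was 1.14 (NSMCE3) or more in every fit that left out 1 library. With TPM all 14 had the same sign, but only some passed. CCDC71, SCO2, DCLRE1B, STBD1, ERRFI1 and VANGL1 passed with TPM. CDR2, CTTNBP2NL, RGL1, DBR1, MBP, NSMCE3, NCK1 and MED18 did not, with limma adjusted p-values from 0.078 (RGL1) to 0.37 (NCK1).

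**Figure D2:**
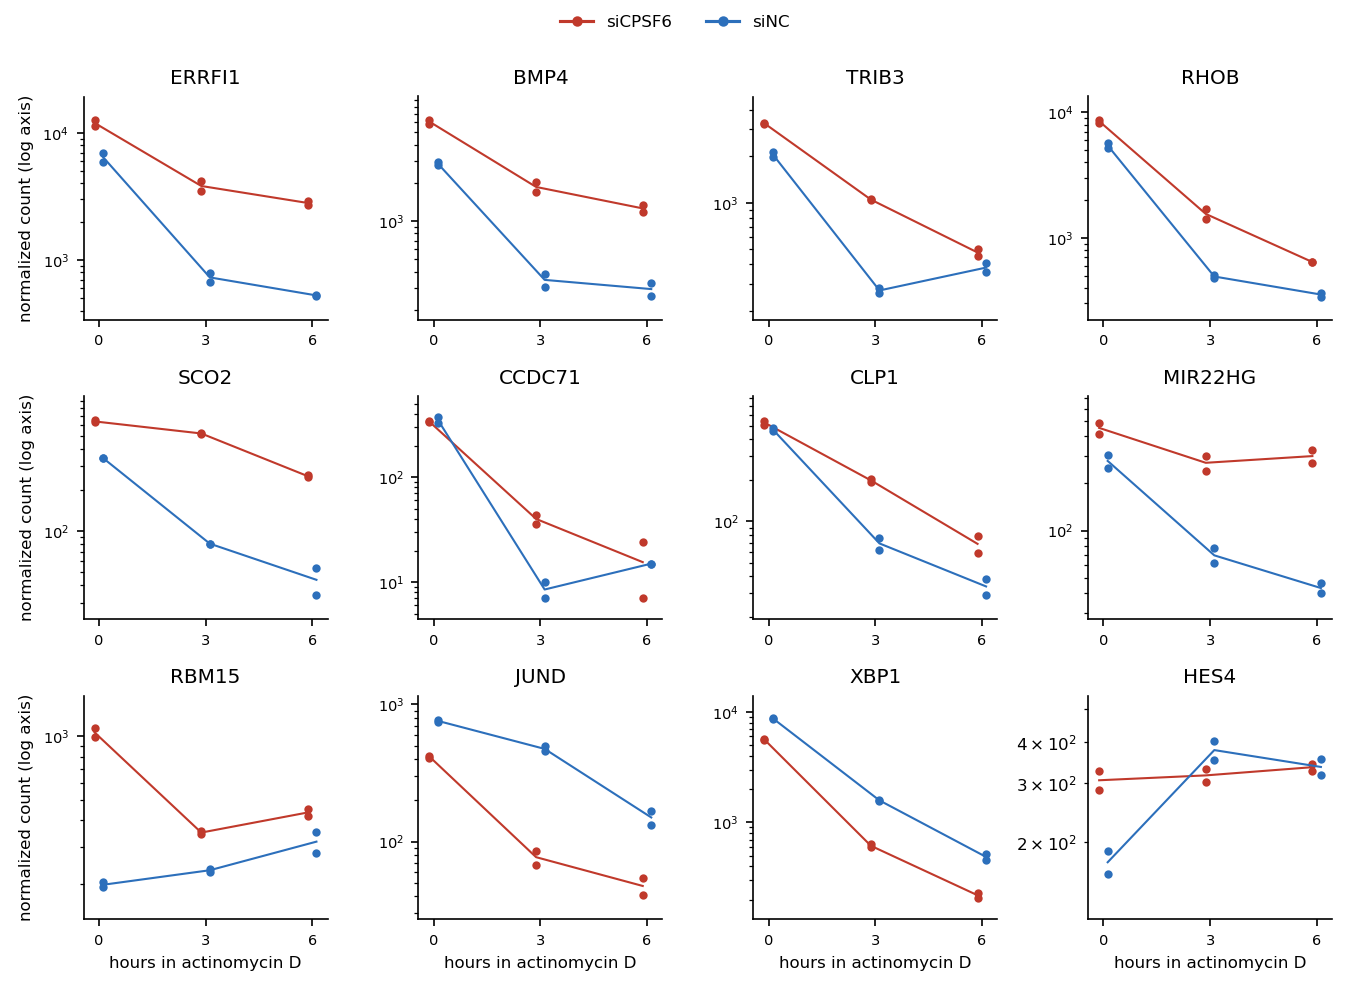
Normalized counts (log axis) against hours in actinomycin D for 12 genes; each point is 1 library, lines join group means, red is siCPSF6 and blue is siNC, 2 libraries per group. For ERRFI1, BMP4, TRIB3, RHOB, SCO2, CCDC71, CLP1 and MIR22HG the siNC line drops more steeply between 0 and 3 h; for RBM15, JUND and XBP1 the siCPSF6 line does, and for HES4 the siNC line climbs while the siCPSF6 line is nearly level.

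The 14 largest falls were RBM15, JUND, UPK3BL1, PPT2-EGFL8, GLTPD2, CLK4, MIX23, PLEKHO2, IP6K2, NDUFAF8, WASH5P, HES4, ZNF548 and SNHG19. RBM15 (hg38 chr1:110338506-110346681, plus strand) encodes an RNA-binding subunit of the complex that writes N6-methyladenosine on mRNA. It had 355 and 345 normalized counts at 3 h and 1097 and 990 at 0 h in siCPSF6 cells, against 228 and 236 at 3 h and 203 and 193 at 0 h in siNC cells. Before actinomycin D the level in siCPSF6 cells was thus far above that in siNC cells (log2 difference 2.39, SE 0.10), and most of the excess was gone after 3 h (0.59). The early difference was -1.80 (SE 0.15, adjusted p = 4.2e-05), with 22.3% of the 0 h level left in siCPSF6 cells and 71.7% in siNC cells on the spike-in scale. RBM15 shares exonic sequence with a gene on the opposite strand, and whether reads were counted by strand is not stated.

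JUND (hg38 chr19:18279760-18281622, minus strand) encodes a subunit of the transcription factor AP-1. JUND had 86 and 68 normalized counts at 3 h and 409 and 423 at 0 h in siCPSF6 cells, against 454 and 494 at 3 h and 750 and 766 at 0 h in siNC cells. It was lower in siCPSF6 cells at both times with no overlap, and the early difference was -1.75 (SE 0.17, adjusted p = 0.00018). On the spike-in scale 12.3% of its 0 h level remained in siCPSF6 cells and 38.2% in siNC cells. With TPM the early difference of JUND was -1.20 and did not pass (adjusted p = 0.081). IP6K2, an inositol hexakisphosphate kinase, started at like levels in both arms. It had 500 and 541 counts at 3 h and 1549 and 1543 at 0 h in siCPSF6 cells, against 1155 and 1126 at 3 h and 1556 and 1638 at 0 h in siNC cells (early difference -1.08, SE 0.10, adjusted p = 0.00016).

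Several of the falls were RNAs whose share grew in siNC cells and not, or less, in siCPSF6 cells. HES4, a transcriptional repressor of the HES family, had 302 and 332 counts at 3 h and 287 and 326 at 0 h in siCPSF6 cells, against 403 and 352 at 3 h and 160 and 188 at 0 h in siNC cells (early difference -1.06, SE 0.18, adjusted p = 0.0052). On the spike-in scale 68.5% of its 0 h level remained in siCPSF6 cells, against 133% in siNC cells. The snoRNA host SNHG19 had 155 and 152 counts at 3 h and 141 and 131 at 0 h in siCPSF6 cells, against 286 and 302 at 3 h and 125 and 147 at 0 h in siNC cells (early difference -0.94, SE 0.20, adjusted p = 0.017). The value for SNHG19 was -0.53 with TPM (adjusted p = 0.12) and -0.82 with spike-in scaling (adjusted p = 0.21), and it passed on neither scale. MIX23, a mitochondrial intermembrane space protein, was instead lost in siCPSF6 cells and near its 0 h level in siNC cells. It had 76 and 61 counts at 3 h and 164 and 146 at 0 h in siCPSF6 cells, against 388 and 435 at 3 h and 424 and 430 at 0 h in siNC cells. MIX23 had an early difference of -1.12 (SE 0.20, adjusted p = 0.0067), and with TPM it was -0.55 and did not pass (adjusted p = 0.44). UPK3BL1 and the pseudogene WASH5P have near-identical copies, PPT2-EGFL8 is a readthrough gene, and GLTPD2, CLK4, PLEKHO2 and ZNF548 share exons with another gene on their strand, so that the values of these 7 are uncertain. PPT2-EGFL8, GLTPD2, CLK4, PLEKHO2, NDUFAF8, ZNF548 and SNHG19 did not pass in every fit that left out 1 library, with adjusted p-values of up to 0.17 for PPT2-EGFL8.

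Of 40 tested members of a list of immediate early and AU-rich mRNAs 4 were higher and 2 lower, against 3.58% and 1.62% of all genes, and the median early difference was -0.03, equal to that of all genes. With the replicate number as a term 7 were higher and 2 lower, against 6.95% and 4.85% of all genes. These mRNAs fell steeply in both arms, by a median log2 change of -2.44 in siCPSF6 cells and -2.65 in siNC cells. RHOB, a small GTPase, had 1687 and 1413 normalized counts at 3 h and 8263 and 8762 at 0 h in siCPSF6 cells, against 501 and 481 at 3 h and 5212 and 5679 at 0 h in siNC cells. Its early difference was 1.01 (SE 0.12, adjusted p = 0.00056). BTG2, an antiproliferative cofactor of deadenylation, had 1.12 (SE 0.16, adjusted p = 0.0018), ZFP36L1, which itself binds AU-rich elements, 0.67 (SE 0.11, adjusted p = 0.0046), and MCL1, an antiapoptotic BCL2 relative, 0.67 (SE 0.13, adjusted p = 0.013). JUND and TRIB1, a pseudokinase (-0.80, SE 0.21, adjusted p = 0.045), were lower. TRIB1 was nearly gone in both arms at 3 h, with 35 and 48 counts in siCPSF6 cells and 53 and 49 in siNC cells.

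In the BMP and TGF-β list 1 of 15 members rose and none fell, against 3.58% and 1.62% of all genes. The median early difference was 0.23. With the replicate number as a term 4 rose, against 6.95% of all genes. The one that rose without that term was BMP4 (hg38 chr14:53949736-53958761, minus strand), a secreted ligand of the BMP receptors. BMP4 had 2036 and 1685 normalized counts at 3 h and 6287 and 5860 at 0 h in siCPSF6 cells, against 386 and 304 at 3 h and 2902 and 2757 at 0 h in siNC cells. The arms were apart at both times, and the early difference was 1.33 (SE 0.16, adjusted p = 0.0020), with 20.2% left in siCPSF6 cells and 7.42% in siNC cells on the spike-in scale. SMAD6, an inhibitor in the same pathway, had 0.47 (SE 0.16) and did not pass (adjusted p = 0.12).

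Of 31 members of the unfolded protein and integrated stress response list 5 rose and 1 fell, against 3.58% and 1.62% of all genes, and 25 did not pass. The median was 0.06. With the replicate number as a term 6 rose and 2 fell, against 6.95% and 4.85% of all genes. TRIB3, a pseudokinase induced by ATF4, had 1042 and 1055 normalized counts at 3 h and 3236 and 3300 at 0 h in siCPSF6 cells, against 259 and 283 at 3 h and 2123 and 1984 at 0 h in siNC cells. The early difference of TRIB3 was 1.28 (SE 0.10, adjusted p = 4.2e-05), and it passed under every alternative run for it. EIF2AK3, the kinase PERK, had 0.90 (SE 0.17), DNAJB9, a chaperone of the endoplasmic reticulum, 0.90 (SE 0.15), CEBPG, a partner of ATF4, 0.56 (SE 0.13), and DNAJC3, an inhibitor of PERK, 0.47 (SE 0.10). XBP1, the transcription factor spliced by IRE1, went the other way. It had 596 and 632 counts at 3 h and 5660 and 5605 at 0 h in siCPSF6 cells, against 1552 and 1612 at 3 h and 8907 and 8596 at 0 h in siNC cells. The early difference of XBP1 was -0.73 (SE 0.09, adjusted p = 0.00062); with spike-in scaling it was -0.61 and did not pass (adjusted p = 0.19).

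Among 29 NRF2 targets 3 rose and none fell, against 3.58% and 1.62% of all genes, with a median of -0.09. NFE2L2, the gene of NRF2 itself, had 1847 and 1593 counts at 3 h and 4438 and 4037 at 0 h in siCPSF6 cells, against 868 and 794 at 3 h and 3841 and 3679 at 0 h in siNC cells (early difference 0.87, SE 0.12, adjusted p = 0.0012). OSGIN1 had 0.87 (SE 0.22) and TXNRD1, a thioredoxin reductase, 0.40 (SE 0.09). With the replicate number as a term 4 rose and 1 fell, against 6.95% and 4.85% of all genes. Among 28 p53 targets BTG2 rose and CDKN1A fell, against 3.58% and 1.62% of all genes. With the replicate number as a term 2 rose and 1 fell, against 6.95% and 4.85%. CDKN1A, the cyclin-dependent kinase inhibitor p21, had 527 and 526 counts at 3 h and 2393 and 2319 at 0 h in siCPSF6 cells, against 1102 and 1171 at 3 h and 3271 and 3503 at 0 h in siNC cells (early difference -0.59, SE 0.10, adjusted p = 0.0046). With spike-in scaling it was -0.47 and did not pass (adjusted p = 0.51).

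Among the genes of 3′ end processing, 3 of 25 rose and 2 fell, against 3.58% and 1.62% of all genes, with a median of -0.09. CPSF6, the silenced gene, is 1 of those that fell. CSTF1, a subunit of the cleavage stimulation factor, had 611 and 587 normalized counts at 3 h and 1435 and 1592 at 0 h in siCPSF6 cells, against 277 and 242 at 3 h and 1317 and 1289 at 0 h in siNC cells (early difference 0.99, SE 0.13, adjusted p = 0.00093). CLP1, a subunit of cleavage factor II, had 195 and 203 counts at 3 h and 508 and 544 at 0 h in siCPSF6 cells, against 76 and 62 at 3 h and 454 and 482 at 0 h in siNC cells (early difference 1.35, SE 0.18, adjusted p = 0.0014). In both genes the arms were apart at both times, by far more at 3 h than at 0 h. RBBP6, a further factor of the cleavage complex, had 0.46 (SE 0.10). CPSF7, the other large subunit of cleavage factor Im, had 1128 and 1199 counts at 3 h and 1349 and 1578 at 0 h in siCPSF6 cells, against 1908 and 1861 at 3 h and 1653 and 1773 at 0 h in siNC cells. The early difference of CPSF7 was -0.47 (SE 0.12, adjusted p = 0.034), and with spike-in scaling it was -0.35 and did not pass (adjusted p = 0.80).

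Of 58 genes of deadenylation, decapping and decay 3 rose and 2 fell, against 3.58% and 1.62% of all genes, with a median of -0.03. With the replicate number as a term 5 rose and 7 fell, against 6.95% and 4.85% of all genes. The exosome subunits EXOSC4 and EXOSC3 had 0.72 (SE 0.15) and 0.57 (SE 0.12), and YTHDF2, a reader of N6-methyladenosine, 0.50 (SE 0.12). UPF3B, a factor of nonsense-mediated decay, had -0.66 (SE 0.16). With spike-in scaling or with TPM none of the 58 passed. EXOSC4, EXOSC3, YTHDF2 and UPF3B each failed to pass when at least 4 of the 8 libraries were left out in turn.

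Among 26 SR proteins and CLK kinases 1 rose and 3 fell, against 3.58% and 1.62% of all genes. With the replicate number as a term 2 rose and 6 fell, against 6.95% and 4.85%. The median was -0.11 as deposited and 0.00 with spike-in scaling. SON, a scaffold of nuclear speckles, had 5022 and 4743 counts at 3 h and 5118 and 5142 at 0 h in siCPSF6 cells, against 2896 and 2907 at 3 h and 4458 and 4397 at 0 h in siNC cells (early difference 0.54, SE 0.08, adjusted p = 0.0026). CLK4 had -1.12 (SE 0.25), LUC7L2 -0.59 (SE 0.12) and TRA2B -0.36 (SE 0.08). None of the 26 passed with spike-in scaling or with TPM. Of 24 nuclear noncoding RNAs and snoRNA hosts 2 rose and 3 fell, against 3.58% and 1.62% of all genes. MIR22HG, the host of miR-22, had 241 and 300 counts at 3 h and 415 and 488 at 0 h in siCPSF6 cells, against 77 and 62 at 3 h and 252 and 304 at 0 h in siNC cells (early difference 1.25, SE 0.23, adjusted p = 0.0076), and NORAD, a long noncoding RNA, had 0.41 (SE 0.10). SNHG6 had -0.79 (SE 0.15), KCNQ1OT1 -0.55 (SE 0.11) and SNHG5 -0.44 (SE 0.11). The median of the 24 was -0.12 as deposited and -0.01 with spike-in scaling. With the replicate number as a term 3 rose and 4 fell, against 6.95% and 4.85%. With spike-in scaling 2 of the 24 rose and none fell, against 210 and 18 of all 12939 genes, and none passed with TPM.

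The most uniform groups were the long-lived housekeeping mRNAs of the ribosome and the respiratory chain. Of 78 cytosolic ribosomal protein genes 16 fell and none rose, against 1.62% lower and 3.58% higher of all genes. All 78 values were below 0. The median early difference was -0.25 as deposited, -0.14 with spike-in scaling and -0.10 with TPM, against -0.03, 0.08 and 0.04 for all genes. These mRNAs gained share in both arms, by a median log2 change of 0.77 in siCPSF6 cells and 1.02 in siNC cells. RPS29 had 2356 and 2350 normalized counts at 3 h and 1409 and 1257 at 0 h in siCPSF6 cells, against 3681 and 3690 at 3 h and 1352 and 1275 at 0 h in siNC cells. The arms overlapped at 0 h and were apart at 3 h, and the early difference was -0.67 (SE 0.10, adjusted p = 0.0023). RPS21 had -0.61 (SE 0.10, adjusted p = 0.0033). With the replicate number as a term 47 of the 78 fell, against 4.85% of all genes. None passed in limma with spike-in scaling (2 lower at an unadjusted p under 0.05) or with TPM (12 lower), against 44 lower at that limit as deposited. Ribosomal protein genes have many processed pseudogenes, so that their counts can be split.

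Of 76 nuclear genes for respiratory chain subunits 13 fell and none rose, against 1.62% lower and 3.58% higher of all genes. Of the 76 values 73 were below 0. These mRNAs gained share in both arms, by a median log2 change of 0.66 in siCPSF6 cells and 0.92 in siNC cells. The median was -0.23 as deposited, -0.12 with spike-in scaling and -0.07 with TPM. With the replicate number as a term 27 fell, against 4.85% of all genes. UQCR11, a subunit of complex III, had 1821 and 1941 counts at 3 h and 1349 and 1282 at 0 h in siCPSF6 cells, against 2323 and 2335 at 3 h and 1139 and 1185 at 0 h in siNC cells (early difference -0.49, SE 0.10, adjusted p = 0.011). NDUFB2, of complex I, had -0.51 (SE 0.10), ATP5F1E, of ATP synthase, -0.42 (SE 0.09), and COX8A, of complex IV, -0.38 (SE 0.09). None of the 76 passed in limma with spike-in scaling (0 at an unadjusted p under 0.05) or with TPM (1 higher and 11 lower), against 41 lower at that limit as deposited. Among the 13 mRNAs encoded in mitochondria MT-ND4L (-0.51, SE 0.10) and MT-ND3 (-0.34, SE 0.08) fell, against 1.62% of all genes. The median of the 13 was -0.16, and none of them passed with spike-in scaling or with TPM. The TPM values of MT-ND4L and MT-ND3 were -0.06 and 0.06.

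Of 23 hepatocyte transcription factors 2 rose and 1 fell, against 3.58% and 1.62% of all genes, with a median of 0.20. With the replicate number as a term 4 of these factors rose and 1 fell, against 6.95% and 4.85%. NR0B2, the small heterodimer partner that represses bile acid synthesis, had 93 and 91 counts at 3 h and 815 and 739 at 0 h in siCPSF6 cells, against 50 and 47 at 3 h and 693 and 793 at 0 h in siNC cells (early difference 0.84, SE 0.18, adjusted p = 0.017). NR1H4, the bile acid receptor FXR, had 0.59 (SE 0.13), with 761 and 907 counts at 3 h and 824 and 922 at 0 h in siCPSF6 cells, against 990 and 980 at 3 h and 1501 and 1620 at 0 h in siNC cells. PROX1 had -0.37 (SE 0.10). With spike-in scaling or with TPM none of the 23 passed. Among 39 plasma protein genes APOE fell (-0.46, SE 0.11, adjusted p = 0.025) and none rose, against 1.62% and 3.58% of all genes. With the replicate number as a term 1 rose and 1 fell, against 6.95% and 4.85%. The median of the 39 was -0.10 as deposited and 0.02 with spike-in scaling. Neither APOE nor any other of the 39 passed with spike-in scaling or with TPM.

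Of 35 genes of mitosis AURKA (0.65, SE 0.10, adjusted p = 0.0023) and MKI67 (0.38, SE 0.09, adjusted p = 0.032) rose and none fell. The shares of all genes were 3.58% and 1.62%. With the replicate number as a term 2 rose and 1 fell, against 6.95% and 4.85%. None of 7 replication-dependent histone genes passed with limma or had an unadjusted p under 0.05. Of 94 KRAB zinc finger genes, whose mRNAs are often short-lived, 6 rose and none fell, against 3.58% and 1.62% of all genes. Their median was 0.09. With the replicate number as a term 11 rose and 1 fell, against 6.95% and 4.85%. ZNF274 had 163 and 134 counts at 3 h and 431 and 471 at 0 h in siCPSF6 cells, against 73 and 69 at 3 h and 515 and 458 at 0 h in siNC cells (early difference 1.16, SE 0.19, adjusted p = 0.0046). ZNF441 had 1.25 (SE 0.27), ZNF92 1.11 (SE 0.22), ZNF317 0.90 (SE 0.19), ZNF614 0.82 (SE 0.18) and ZNF24 0.68 (SE 0.13).

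Including CPSF6, 80 members of these lists that are not among the 28 largest changes passed. Of these, 17 passed in each of the 8 fits that left out 1 library: CPSF6, RHOB, BTG2, ZFP36L1, BMP4, CSTF1, CLP1, SON, TRIB3, DNAJB9, XBP1, NFE2L2, CDKN1A, RPS29, RPS21, AURKA and ZNF274. The other list members lost their call in at least 1 such fit, MIR22HG, for example, without siCPSF6 0 h replicate 1. Among the 17, CPSF6, ZFP36L1, SON, XBP1, CDKN1A, RPS29 and RPS21 did not pass with spike-in scaling. RHOB, BMP4, NFE2L2 and AURKA did not pass without the trend and robust settings of limma, nor DNAJB9 in the fit of all 12 libraries. BTG2, CSTF1, CLP1, TRIB3 and ZNF274 passed in each of these alternatives. Exons of MCL1, CLP1, EXOSC4, EXOSC3, SON, LUC7L2, MIR22HG, SNHG6, SNHG5, NFE2L2, OSGIN1, APOE, UQCR11, NDUFB2, COX8A, MT-ND4L and RPS29 overlap those of another gene on the same strand, and those of CPSF6, CPSF7, CDKN1A, DNAJB9, EIF2AK3, PROX1, KCNQ1OT1 and ATP5F1E one on the opposite strand, so that these counts are uncertain. The medians of the short-lived, plasma protein, 3′ end processing, decay, NRF2, p53, mitosis, histone and SR protein lists are below 0 as deposited and above 0 with spike-in scaling, as is that of all genes.

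**Figure D3:**
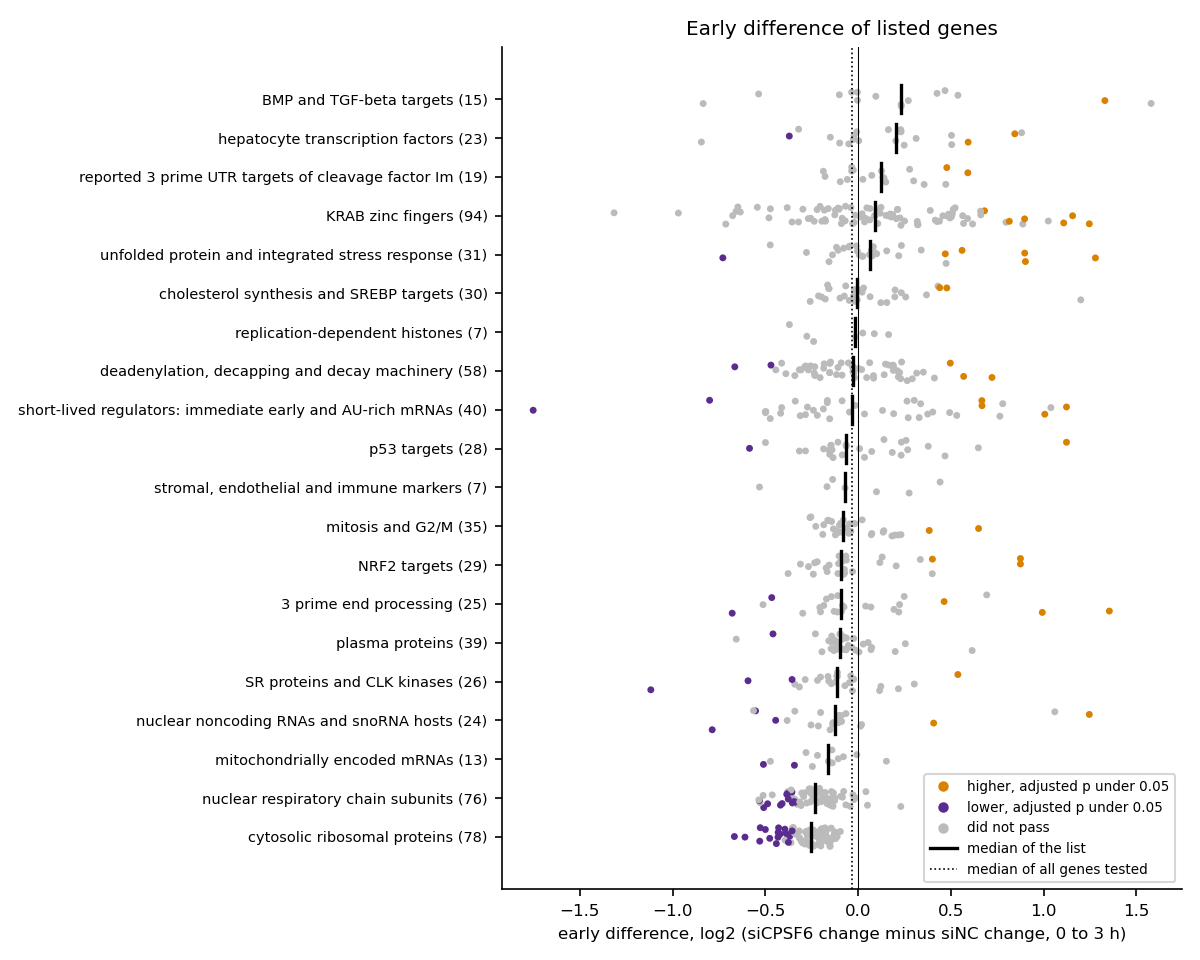
Early difference (log2, normalized counts) of every tested member of 20 gene lists, number tested in parentheses; each point is 1 gene, orange and purple mark genes that passed higher and lower, the thick bar is the list median and the dotted line the median of all genes (-0.03). Cytosolic ribosomal proteins lie wholly below 0 with a median of -0.25, while most other lists spread to both sides.

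Gene structure was not used in the comparison. For each coding gene 1 annotated transcript (GENCODE 29) was taken, 454 for the higher genes, 194 for the lower genes and 11675 in all. The median annotated 3′ UTR was 1742 bases for higher genes and 775 bases for lower genes, against 1071 bases for all genes tested. The median mRNA length was 3980, 2516.5 and 3100 bases in the same order, and the median number of exons 6, 8 and 9. Transcripts of 1 or 2 exons were 13.2% of higher genes and 4.64% of lower genes, against 6.06% of all. Among genes with a 3′ UTR under 500 bases 2.15% were higher and 2.42% lower. Among those with 2000 to under 4000 bases 6.48% were higher and 1.03% lower, and from 4000 bases on 4.54% and 1.62%. The median mean normalized count was close in these bins, 584 to 627. The median early difference was -0.10 in the shortest bin and 0.05 in the longest, and 0.01 and 0.16 with spike-in scaling.

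**Figure D4:**
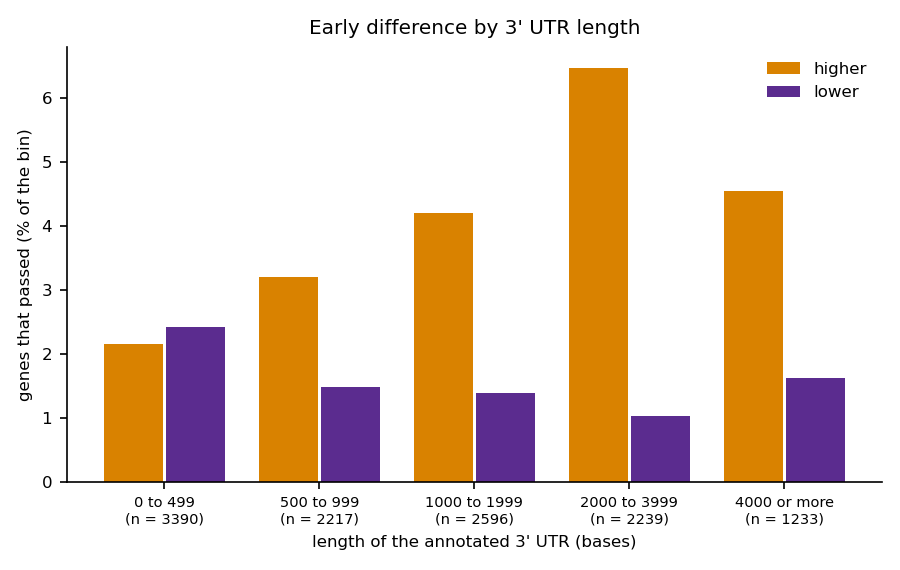
Share of tested coding genes that passed higher (orange) or lower (purple) in the early difference, by length of the annotated 3′ UTR in bases, with the number of genes in each bin. The share of higher genes goes from 2.15% in the shortest bin to 6.48% at 2000 to under 4000 bases, and the share of lower genes is highest, 2.42%, in the shortest bin.

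The 3′ UTR letters were searched on the sense strand, overlapping matches allowed, for ATTTA, the core of AU-rich elements, TTATTTATT, its longer form, which holds ATTTA, TGTA, the motif of cleavage factor Im, and TGTANATA, the Pumilio motif, which holds TGTA. ATTTA had a median density of 2.11 per 1000 bases in higher genes and 1.04 in lower genes, against 1.55 in all, and TGTA 5.40 and 5.46, against 4.95. 3′ UTRs with at least 300 bases numbered 420 for higher genes, 133 for lower genes and 9611 in all. Shares of lower genes, the low ones above all, thus rest on very few genes. Of these 3′ UTRs, the last 300 bases held TGTANATA in 14.5% of higher genes and 11.3% of lower genes, against 10.5% of all. They held TTATTTATT in 2.86% and 0.752%, against 1.81%. The first 300 bases held TGTANATA in 8.81% of higher genes and 11.3% of lower genes, against 5.96% of all, and TTATTTATT in 1.90% and 0.752%, against 1.51%. A match is a description of the letters and not a known site of binding. The motif matches below, in genes with large early differences, show where in the 3′ UTR such letters stand; each is 30 bases of the GENCODE 29 transcript in transcript sense with the motif in capitals, and the gene, the early difference and the hg38 position precede the sequence.
CTTNBP2NL, 1.64, first motif base at 81 of 3752 UTR bases, chr1:112457483-112457512, plus strand: tcagattatgTTATTTATTttgatagtagc
IP6K2, -1.08, base 170 of 270, chr3:48688084-48688113, minus strand: cttggagtctTTATTTATTttaactatttc
CDR2, 1.68, base 983 of 1029, chr16:22345964-22345993, minus strand: gttccgattatTGTATATAtttttctaaaa
DBR1, 1.5, base 740 of 877, chr3:138161131-138161160, minus strand: aatcaagtcatTGTATATAttatgatgtat
NSMCE3, 1.49, base 3743 of 3799, chr15:29265030-29265059, minus strand: atgactttggaTGTATATAtgctctttatt
NCK1, 1.47, base 519 of 673, chr3:136948961-136948990, plus strand: tcacaggccatTGTAAATAccaagtatatt
CLK4, -1.12, base 116 of 953, chr5:178603483-178603512, minus strand: gtacagttaagTGTAAATAttgtatgtttt
Both motifs occur in genes of both signs. ERRFI1, BMP4, RHOB and TRIB3 hold neither long motif in their annotated 3′ UTR, and have 5, 3, 4 and 0 matches of ATTTA.

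The ratio of normalized count to TPM is proportional to the mean length of the transcripts assigned to a gene. A change of this apparent length would thus mark a change in the transcripts counted. Apparent length differed between the arms for 4109 of 10543 genes at 0 h and for 3654 at 3 h, by limma at an adjusted p under 0.05. Its early difference passed for none of 10543 genes (0%) with limma, while 1312 had an unadjusted p under 0.05 and the smallest adjusted p was 0.085, for CPSF6 itself (0.61, SE 0.08). With the replicate number as a term 1 gene passed, and none without the trend and robust settings of limma. Without single libraries 12 genes passed at most (without siCPSF6 3 h replicate 2), 9 without siNC 3 h replicate 1, 5 without siNC 3 h replicate 2, 3 without siCPSF6 3 h replicate 1 and 1 without siNC 0 h replicate 1.

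The 6 h libraries show what followed. For the 463 higher genes the median early difference was 0.69, the median late difference, over 3 to 6 h, -0.10, and the median difference over 0 to 6 h 0.61; for all genes these were -0.03, 0.00 and -0.03. For the 209 lower genes the medians were -0.52, 0.12 and -0.46. The early and the late difference share the 3 h libraries with opposite sign, so that their values are not independent. The late difference passed for 1981 genes (15.3%; 612 with spike-in scaling and 3189 with the replicate number as a term), and the difference between the early and the late step for 592 genes (4.58%), 375 with a larger early value and 217 with a larger late value, in the fit of all 12 libraries; 155 passed with spike-in scaling and 1509 with the replicate number as a term.

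Single genes took separate courses after 3 h. ERRFI1 kept its gap, with 2927 and 2693 normalized counts at 6 h in siCPSF6 cells, against 519 and 536 in siNC cells, and a late difference of 0.03 (SE 0.15, adjusted p = 0.93). SCO2 had 257 and 249 counts at 6 h in siCPSF6 cells, against 34 and 54 in siNC cells. In DBR1 the gap closed, with 31 and 45 counts at 6 h in siCPSF6 cells, against 38 and 36 in siNC cells (late difference -1.61, adjusted p = 0.0025). MED18 likewise had 42 and 49 counts in siCPSF6 cells at 6 h, against 41 and 42 in siNC cells. TRIB3 had 499 and 455 counts in siCPSF6 cells at 6 h, against 405 and 357 in siNC cells. As deposited its share in siNC cells was higher at 6 h than at 3 h, which is not an amount per cell. XBP1 had 229 and 209 counts at 6 h in siCPSF6 cells, against 461 and 513 in siNC cells.

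**Figure D5:**
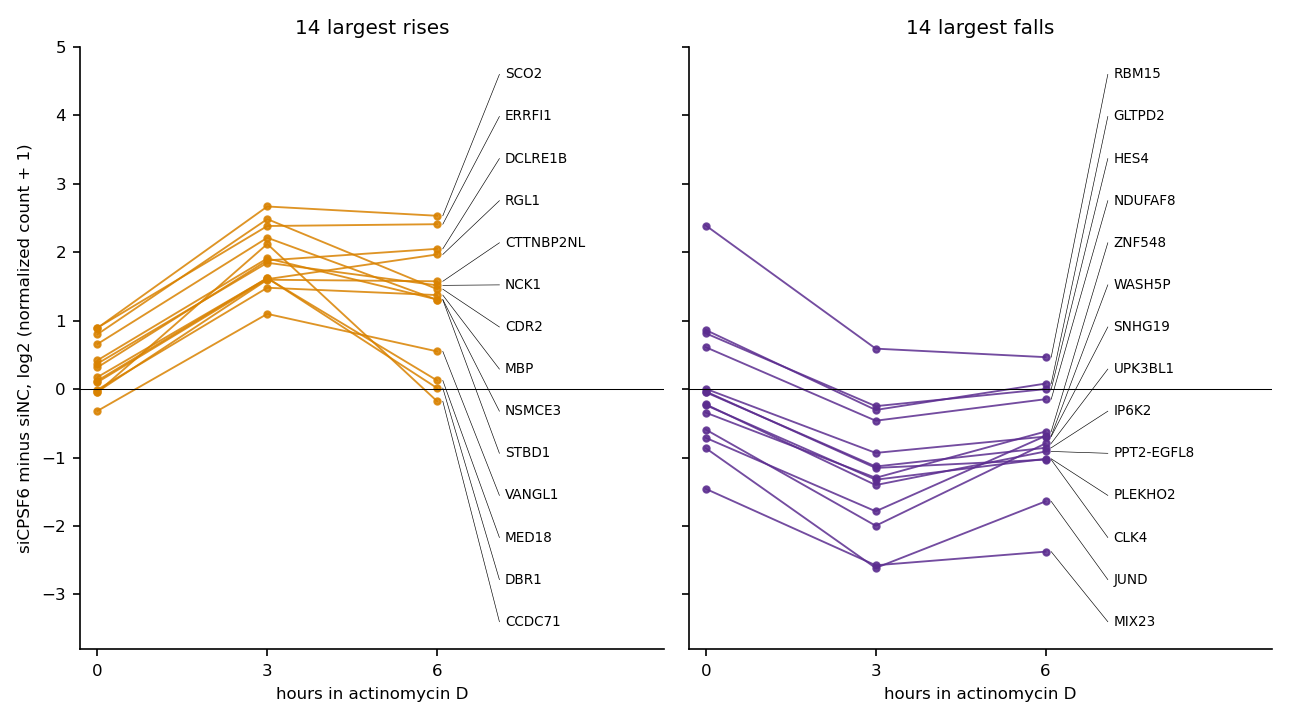
Log2 difference between siCPSF6 and siNC (siCPSF6 minus siNC, group means of 2 libraries, normalized counts) at 0, 3 and 6 h for the 14 largest rises (left) and the 14 largest falls (right) of the early difference. ERRFI1 and SCO2 keep their gap to 6 h, DBR1, MED18 and CCDC71 return to near 0, and RBM15 starts at 2.39, drops to 0.59 at 3 h and changes little after that.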

How the data were processed

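RNA of HepG2 cells was sequenced in 12 libraries, 8 of which (0 h and 3 h) enter the early difference. STAR, RSEM and the build hg38 are named, per the submitters' processing notes; versions, annotation and strandedness were not given in the sources used here. One deposited table holds normalized counts, treated as a score because the authors scaled each library to the same upper quartile and rounded the values; tests made for raw counts were therefore not run. The second deposited table holds TPM over the same entries. Log2(normalized count + 1) and log2(TPM + 0.1) were fitted with limma 3.58.1 under R 4.3.3 (moderated variances, trend and robust options on) as 4 group means over 8 libraries, with Benjamini-Hochberg adjustment over 12939 genes and a threshold of 0.05; every adjusted p is from limma. Folds of low genes are understated on these scales. Values for 6 h are from a fit of all 12 libraries. The fits were tested on simulated data.

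Spike-in scaling set 47 ERCC RNAs to an equal median log ratio. Apparent length was log2(normalized count / TPM), centred per library, for genes with a mean of at least 100. Replicate differences correlated at 0.133 to 0.221 between all pairs of groups, which is why replicate numbers are read as pairs. This rests on the values, since the labels name no shared day. Only the fits with the replicate number as a term use these pairs. All other fits, the main one among them, leave the pairs out of their SE and p-values. Replicate pairs correlated at 0.991 to 0.993, with 154 to 197 identical values each, and none was a copy of another. p-values measure the spread between 2 replicates per group.

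Named genes were CPSF6, NQO1, MYC and ALB, the 14 largest rises and 14 largest falls among genes that passed, averaged 100 or more counts, and had the same sign with TPM and a symbol that is no clone name, and the 2 members of each list with the smallest p; the other list members that passed are named as well, as is FMC1-LUC7L2, which was chosen after its values were seen. The same rule for apparent length named no gene. Some results that the rule names are not reported here. The genes, lists and tests were chosen with earlier results of these data known. Transcripts and coordinates are from GENCODE 29, in which 1 transcript per gene with a 3′ UTR was taken, the APPRIS principal one first and then the longest 3′ UTR; it may not be the transcript expressed in these cells. Figures were drawn with matplotlib 3.10.9.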

Additional observations from a re-analysis of the deposited data

Results flagged for a closer look

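The early and the late difference (0 to 3 h against 3 to 6 h) differed in 592 genes by the test of that difference in limma. Among the 28 largest early changes 20 were in this number. As they were chosen for their early value, and both steps share the 3 h libraries, these values are a description. The early minus late value was 4.47 for CCDC71, 3.11 for DBR1, 2.94 for MED18, 2.71 for CDR2 and 2.46 for STBD1. It was 2.09 for NSMCE3, 1.97 for VANGL1, 1.91 for SCO2, 1.80 for NCK1, 1.6 for MBP, 1.46 for ERRFI1 and 1.39 for DCLRE1B. Among the falls it was -2.72 for JUND, -2.61 for UPK3BL1, -2.17 for WASH5P, -1.67 for RBM15, -1.63 for ZNF548, -1.55 for GLTPD2, -1.36 for IP6K2 and -1.31 for HES4.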

How the results depend on the processing

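The count of genes with an early difference was 675 and 683 with pseudocounts of 0.1 and 10, 523 without a filter, 752 with a mean of at least 100 and 667 with median-ratio scaling. It was 387 (292 higher, 95 lower) with all 12 libraries, 98 (83 and 15) without trend and robust settings, 228 (210 and 18) with spike-in scaling and 226 to 649 (177 to 452 higher, 49 to 197 lower) with 1 library left out. With the replicate block it was 1527 (899 and 628). For TPM, 37 became 83 with a mean TPM of at least 1, 4 without a filter, 59 and 32 with pseudocounts of 0.01 and 1, 21 with spike-in scaling, 144 with the replicate block, 3 without trend and robust settings (an alternative added after seeing the data, as for apparent length) and 1 to 65 with 1 library left out. For apparent length, 0 became 1 with the replicate block and 0 to 12 with 1 library left out. Between 3 h and 0 h in siCPSF6 cells 5777 genes passed with spike-in scaling (235 higher, 5542 lower), against 8863 as deposited (5752 and 3111). The early minus late count of 592 became 155 with spike-in scaling and 1509 with the replicate block. A group left with 1 library is assumed to vary like the other groups. The cause was not tested. No named gene changed sign where it passed. The settings counted next are all fits of normalized counts, so a gene that passed under each of them may not pass with TPM. JUND, MBP, NCK1 and MED18 are such genes. Of the 28 largest changes 12 passed under all 17 settings and 21 in every fit without 1 library.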
